A study of Caenorhabditis elegans with 4 samples.

Results

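Chromosome II of Caenorhabditis elegans carried 414 of the 2343 binding sites of the nuclear hormone receptor NHR-28 that the authors deposited for embryos, or 17.7% (95% Clopper-Pearson interval 16.1 to 19.3%). All peaks whose deposited chromosome is II were taken, with no use of their values. The lists of the single ChIP libraries placed 123 of 649 peaks on II in replicate 1 (18.95%) and 94 of 495 in replicate 2 (18.99%). The study mapped where NHR-28 sits on the genome in vivo by chromatin immunoprecipitation followed by sequencing (ChIP-seq). Of its 4 samples, 2 were ChIP libraries made with an anti-GFP antibody and 2 were input libraries of chromatin set aside before the immunoprecipitation. All came from hermaphrodite embryos of strain OP317 grown at 20 degrees Celsius. They carried the allele unc119(ed3) and the transgene wgIs317, which holds nhr-28::TY1 EGFP FLAG together with unc119. The transgene codes for NHR-28 fused to GFP and FLAG tags, was brought in by bombardment, and the strain was outcrossed 3 times. Per the labels, the fusion follows the expression pattern of nhr-28 in space and time. The sites are thus those of the tagged protein. No peak list of input DNA was analysed here.

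Nuclear hormone receptors bind DNA through paired zinc fingers of the C4 type, and many of them change activity when a small lipophilic ligand sits in a separate domain. C. elegans has a greatly expanded family of these receptors, most of them related to the vertebrate receptor HNF4. Its chromosomes are holocentric, and on each autosome a gene-rich, rarely recombining centre lies between arms that recombine more and hold more repeats. A ChIP-seq peak is a stretch where fragments pulled down with the tagged protein pile up above a control or model, and its height depends on how often and in how many cells the site is occupied as well as on sequencing depth.

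Each deposited peak has a start, an end and 1 number from the peak caller PeakSeq, either a p-value or a q-value, here called the caller value. A lower caller value marks a stronger peak, and the highest in the series-level list was 0.000999. All coordinates refer to WormBase WS220. Read depth is unknown, and caller values and ranks move with it and with the length of a list. Ranks are out of 2343 peaks in the series-level list, 649 in replicate 1 and 495 in replicate 2. A value or rank that differs between lists therefore shows no difference in binding, and such values are given as a description. Peaks in different lists were counted as partners when they shared at least 1 bp. The intervals of shares hold for counting error alone and take each peak as independent of its neighbours. With 1 library per replicate list, and with peaks that are no replicates of each other, differences between II and the other autosomes were not tested, and they are given as counts and intervals.

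By density, II was close to the other autosomes. With the highest peak end of any list standing in for chromosome length (15.3 Mb on II), the series-level list had 27.1 peaks per Mb on II and 26.2 on the other 4 autosomes together, a ratio of 1.03 (interval 0.927 to 1.15). From the replicate 1 list it came to 1.12 (0.911 to 1.37), and from the replicate 2 list to 1.13 (0.894 to 1.43). All 3 intervals contain equal density. Among the 5 autosomes, II ranked 3 by density in the series-level list, below III with 37.7 and I with 30.4 peaks per Mb and above IV with 20.7 and V with 20.3. The II peaks together covered 134.5 kb, or 0.881% of the chromosome, against 0.793% of the other autosomes.

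Typical II peaks had the width and strength of those elsewhere. The median width was 245 bp on II (quartiles 158 and 378.5 bp) and 246 bp on the other autosomes (152 and 376 bp). The median −log10 caller value in the series-level list was 4.40 on II (quartiles 3.58 and 6.60) and 4.25 on the other autosomes (3.46 and 6.31). In the replicate lists the order was the opposite and each difference was small beside the quartiles, with 4.32 on II against 4.39 elsewhere in replicate 1 and 4.24 against 4.28 in replicate 2. The strongest series-level peak of II reached 31.38. On the other autosomes the strongest reached 33.17 on III, 41.5 on I, 46.17 on IV and 48.56 on V. Each of these values rests on a single peak.

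Among the strongest series-level peaks, the interval of the share of II contained its 17.7% of the whole list at each cut taken. II had 1 of the 25 strongest series-level peaks (4%, interval 0.101 to 20.4%). Of the 50 strongest there were 7 on II, of the 100 strongest 16, and of the 200 strongest 31 (15.5%, interval 10.8 to 21.3%). The replicate lists, which may share reads with the series-level list, also had few II peaks among their first 25. Replicate 1 had 1 II peak among its first 25, 8 among its first 50 and 15 among its first 100, and replicate 2 had 2, 7 and 17.

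The strongest site of the chromosome lay near its right end, at 14804219 to 14804815 (597 bp). Its series-level caller value of 4.19e-32 put it at rank 16. The replicate 1 library gave 8.24e-16 (rank 15) and the replicate 2 library 2.85e-14 (rank 19). The next sites were at 11484336 to 11484919 (4.29e-24, rank 32) and at 11634827 to 11636131 (4.33e-24, rank 33). The first of these held rank 27 of the replicate 1 list and rank 31 of the replicate 2 list. The second, a broad site of 1305 bp, held ranks 39 and 43.

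On the left side of the chromosome, strong sites lay mainly between 5 and 6 Mb. The leading one, at 5661613 to 5662415, had a series-level caller value of 3.78e-23, with rank 35 among replicate 1 peaks and rank 37 among replicate 2 peaks. A site at 5543382 to 5544015 (2.40e-22) ranked 47 and 65, and one at 5105030 to 5105464 (1.64e-19) ranked 87 and 24. A site at 5292126 to 5292525 (1.82e-18) ranked 55 and 86. These 4 sites spread over less than 1 Mb, and they made up most of the 6 left-side sites among the 20 strongest that had a partner in both replicate lists.

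On the right side, the site at 11960539 to 11961027 (1.22e-22) held rank 46 of replicate 1 and rank 27 of replicate 2. The one at 10563297 to 10563670 (3.19e-22) held ranks 34 and 55. The site at 13834290 to 13834631 (3.76e-19) held rank 112 of 649 in replicate 1 and rank 42 of 495 in replicate 2. The site at 8561204 to 8561512 (8.53e-19), with 309 bp the narrowest of the 20, ranked 77 and 57. The 20 sites had a median width of 490 bp and reached 1588 bp, and 11 of them lay in the last 25% of the chromosome's length. Just 5 of the 20 stood among the 50 strongest peaks of each library, and the lowest ranks were 218 in replicate 1 and 326 in replicate 2.

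Of the 414 II peaks, 64 had a partner in both replicate lists (15.5%, interval 12.1 to 19.3%), against 14.2% (12.6 to 15.9%) on the other autosomes and 14.6% over all peaks of the series. A partner in replicate 1 only was found for 52 II peaks (12.6%, against 11.4% over all peaks) and in replicate 2 only for 28 (6.76%, against 5.72%). The other 270 had none (65.2%, interval 60.4 to 69.8%), against 68.8% (66.5 to 70.9%) on the other autosomes and 68.3% over all peaks. II therefore sat close to the background in each class, with overlapping intervals. The supported peaks were stronger and wider: the 64 had a median −log10 caller value of 11.15 and a median width of 434.5 bp, and the 270 without a partner had 3.73 and 202.5 bp. How the series-level list was made is not stated. It may rest on the same reads, so the stronger values of supported peaks are no separate evidence.

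Support on II fell off with rank. All 31 II peaks within the first 200 ranks of the series-level list were in both replicate lists (100%, interval from 88.8%), against 131 of 138 (94.9%, interval 89.8 to 97.9%) on the other autosomes. In ranks 201 to 400, 27 of 40 II peaks were in both lists (67.5%, interval 50.9 to 81.4%), against 59.7% on the other autosomes. In ranks 401 to 600 it was 6 of 39 on II (15.4%) and 16.8% on the other autosomes. The weakest II peak in both lists, at 14337849 to 14338446, ranked 592, and below it 0 of the remaining II peaks had both. The other autosomes also had few such peaks after rank 600. They had 4 of 156 in ranks 601 to 800, 2 of 288 in ranks 801 to 1200 and 2 of 305 in ranks 1201 to 1600. Of their 588 peaks after rank 1600, 3 had both, the last at rank 1983. The 0 on II was therefore close to the background. Of the 273 II peaks ranked after 800, 249 had a partner in neither list.

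**Figure D1:**
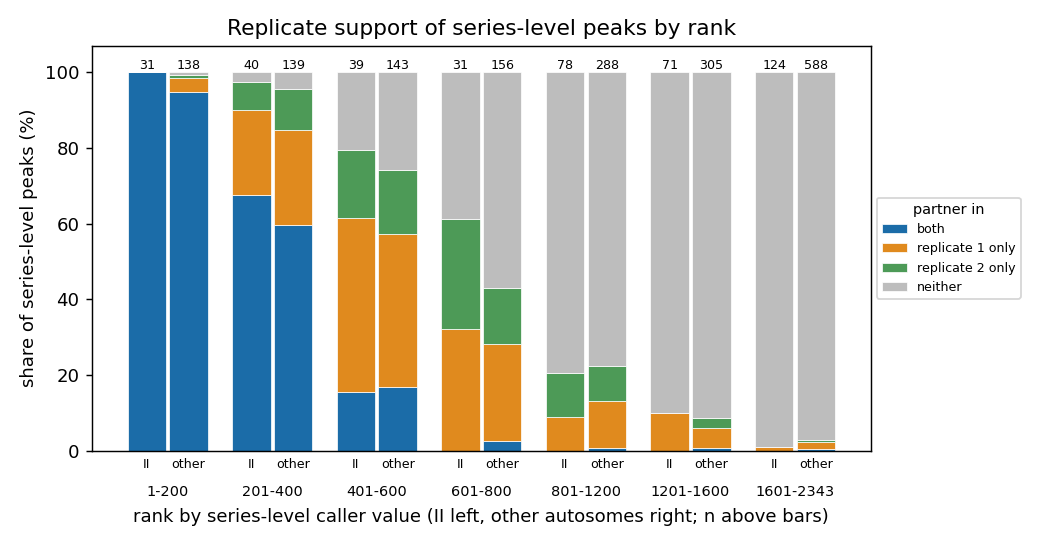
Share of series-level peaks (%) by replicate support in 7 rank classes, with chromosome II left and the other 4 autosomes right in each pair and the number of peaks above each bar. On II the share with a partner in both lists went from 100% in ranks 1 to 200 over 67.5% and 15.4% in the next 2 classes to 0 after rank 600.

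The 2 libraries shared 63 peaks on II when compared directly. These were 51.2% (interval 42.05 to 60.3%) of the replicate 1 peaks on II, against 53.1% on the other autosomes and 53.8% over all replicate 1 peaks. They were 67.02% (56.6 to 76.4%) of the replicate 2 peaks on II, against 70.3% on the other autosomes and 70.5% over all replicate 2 peaks. Shared peaks had a median −log10 caller value of 5.71 in replicate 1 and 4.70 in replicate 2, and peaks found in 1 library had 3.71 and 3.66. Over the 63 shared peaks the −log10 values of the libraries had Pearson's r = 0.776 and Spearman's rho = 0.621, against 0.819 and 0.658 over 256 shared peaks of the other autosomes. These correlations describe peaks that share their libraries, depth and strain. The value was higher in replicate 1 for 43 of the 63.

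**Figure D2:**
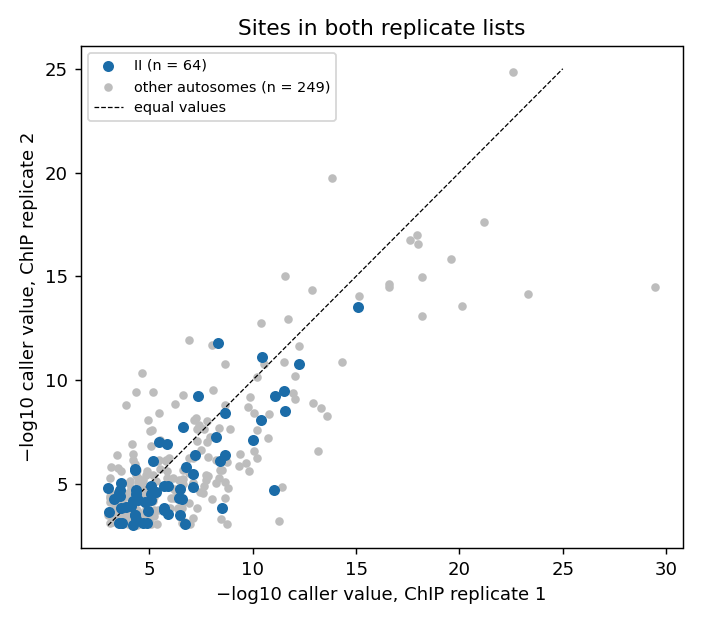
−log10 caller value in ChIP replicate 2 against that in ChIP replicate 1, for the 64 series-level sites on chromosome II (large points) and the 249 on the other autosomes (small points) with a partner in both lists. The dashed line marks equal values, and 44 of the 64 II sites lie below it, with a higher value in replicate 1.

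At some shared sites of II the values in the replicate lists lay far apart. At 1320344 to 1320771 the −log10 caller value was 11.05 in replicate 1 (rank 40) and 4.72 in replicate 2 (rank 200), the widest difference on II. At 13334873 to 13335702 it was 8.54 (rank 80) and 3.82 (rank 308). At 5105030 to 5105464 the higher value was in replicate 2, with 8.30 in replicate 1 and 11.78 in replicate 2. Ends were placed closely at most shared sites, with starts and ends together differing between the libraries by a median of 86.5 bp on II and 76 bp on the other autosomes. At 3521379 to 3521631 they differed by 5 bp in all.

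Being in both lists did not always mean that the libraries marked the same bases. At 2 of the 64 sites the replicate peaks lay under 1 series-level peak without touching. At 12798710 to 12799730 the replicate 2 peak of 282 bp ended 62 bp before the replicate 1 peak of 557 bp began. At 12787633 to 12788066 the replicate 2 peak was 4 bp wide and lay 168 bp from the replicate 1 peak. Both sites were among the 187 strongest peaks of the series-level list.

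Peaks were uneven along the chromosome. Cut into 4 equal parts, its first 25% held 68 of the 414 series-level peaks (16.4%, interval 13.0 to 20.4%). The next 25% held 114 (27.5%), the one after it 96 (23.2%) and the last 136 (32.9%, interval 28.3 to 37.6%). The intervals of the first and the last part do not overlap and do not contain an even 25%. Of the 31 peaks within the first 200 ranks, 16 lay in the last 25% and 3 in the first. Both libraries showed the same ends of this order: replicate 1 had 14 peaks in the first 25% and 46 in the last, and replicate 2 had 13 and 36. On the other autosomes the first 25% held between 23.2% (V) and 32.4% (IV), and the last 25% between 21.6% (IV) and 27.5% (I).

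Between 50 and 75% of the length the libraries gave unlike counts. There replicate 1, the longer list (649 peaks against 495), had 36 peaks and replicate 2 had 18. Of the 96 series-level peaks there, 17 had a partner in replicate 1 only and 0 in replicate 2 only. Such counts were not particular to II. The last 25% of IV had 28 and 14 peaks, and between 50 and 75% of IV 0 peaks had a partner in replicate 2 only. Between 25 and 50% of II each library had 27 peaks. The share of II peaks in the right 50% of the chromosome was 66.7% for replicate 1, 57.4% for replicate 2 and 56.04% for the series-level list (interval 51.1 to 60.9%). The middle 50% of the chromosome held 210 peaks (50.7%, interval 45.8 to 55.6%), between a sparse first 25% and a full last 25%.

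**Figure D3:**
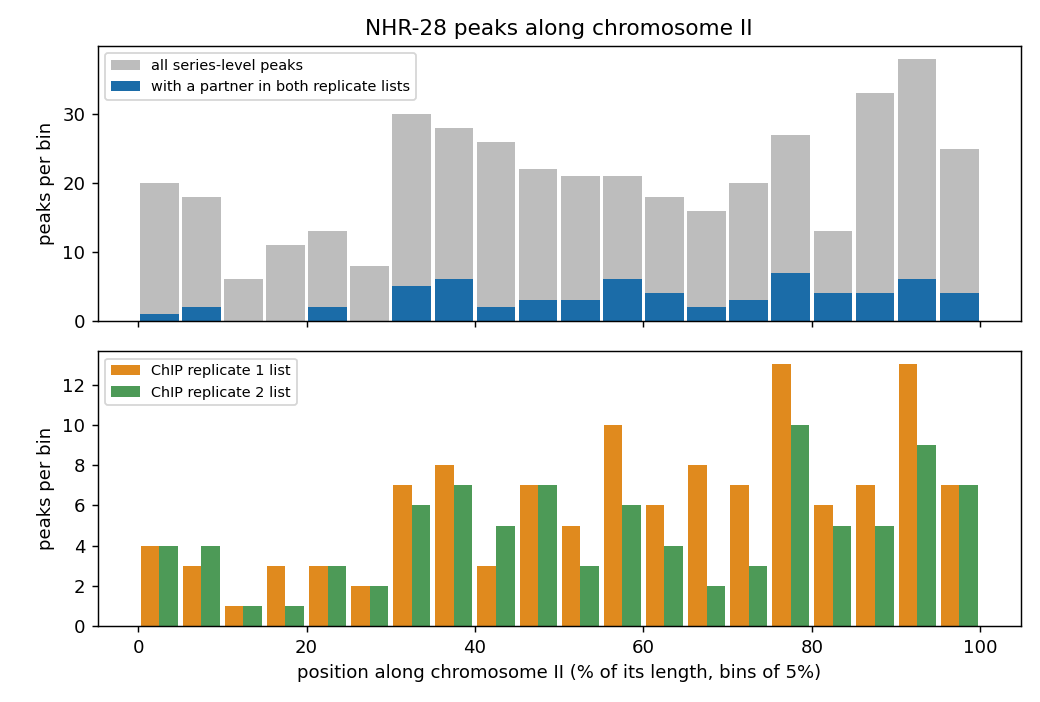
Number of peaks in bins of 5% of the length of chromosome II, for the series-level list with its sites found in both replicate lists (top) and for each ChIP replicate list (bottom). Bins between 10 and 30% of the length hold 6 to 13 series-level peaks, and the fullest bin, from 90 to 95%, holds 38.

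In the 15 complete 1 Mb bins, the series-level count ran from 15 to 42 with a median of 24, and 24 was also the median of the other autosomes' 64 bins. The bins from 5 to 6 Mb and from 13 to 14 Mb held 42 peaks each and that from 14 to 15 Mb held 41. The bin from 5 to 6 Mb was the fullest in sites found in both replicate lists, with 10, and had 13 replicate 1 and 10 replicate 2 peaks. The bin from 13 to 14 Mb matched it in number but had 5 such sites. The bin from 2 to 3 Mb had 15 peaks and 0 sites in both lists.

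The longest peak-free interval of II ran from 1552846 to 1817189 (264 kb), and another of 241 kb began 1 peak later, at 1817638. II had 7 gaps of 200 kb or more between neighbouring midpoints, against 1 on I, 1 on III, 9 on IV and 10 on V.

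A stretch of wide peaks lay near 5.9 Mb. Over 69.5 kb, from 5844622 to 5914082, it held 10 series-level peaks, of which 9 were at least 1000 bp wide. On the whole of II, 18 peaks reached that width (4.35%, interval 2.60 to 6.78%), against 2.22% (1.58 to 3.02%) on the other autosomes and 2.77% over all peaks. By chromosome the share was 1.54% on I, 1.35% on III, 3.05% on IV and 3.31% on V. The interval of each overlapped that of II, and X had 4.65%. The stretch held 50% of the wide II peaks on 0.455% of the chromosome's length. Without the stretch, a comparison added after the values were seen, 9 of the remaining II peaks reached 1000 bp (2.23%). The stretch was picked for its wide peaks and no like stretch was taken out elsewhere, so this share is not set against the other autosomes. Wide peaks also lay close together on V. Its densest 20 kb window, from 18704999 to 18724695, held 9 peaks with a median width of 876 bp, which covered 8087 bp. The 20 kb window of the II stretch from 5871477 to 5893049 held 5 peaks with a median of 2730 bp, which covered 11589 bp. The 10 peaks of the stretch covered 17.3 kb, or 12.9% of all bases under II peaks.

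The −log10 caller values of these 10 peaks ran widely, from 3.06 to 12.39, around a median close to that of the other II peaks. The median −log10 value of the 10 was 4.53, and that of all other II peaks was 4.39. Of the 10, 3 had a partner in both lists, 1 in replicate 1 only and 6 in neither. Over all II peaks 15.5% had a partner in both and 65.2% in neither, and over all peaks of the series 14.6% and 68.3%. The strongest was at 5884907 to 5887636 (2730 bp), with a caller value of 4.04e-13 and rank 165. In the libraries it measured 2607 bp in replicate 1 and 2611 bp in replicate 2, with ends 38 bp apart in sum, so both drew the same broad block. Its caller value was 1.89e-07 (rank 138 of 649) in replicate 1 and 8.46e-04 (rank 488 of 495) in replicate 2.

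That peak was part of a nearly continuous run. From 5883491 to 5895069, 5 peaks of 1153 to 3053 bp followed each other with gaps of 212 to 390 bp, and they covered 89.4% of 11.6 kb. The other 4 peaks of the run had a partner in neither list, and the widest peak of the chromosome, at 5889997 to 5893049 (3053 bp), ranked 1599 with a caller value of 2.12e-04. Joined in the same way, with gaps under 500 bp, the widest run on another autosome was 3168 bp, on III, and it was a single peak. The run on II was 11579 bp. It was not the widest block of the series, since X had a single series-level peak of 36805 bp.

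The left end of the stretch was built differently. The peak at 5844622 to 5845680 (1059 bp, caller value 1.34e-11, rank 214) was 984 bp wide in replicate 1 and 371 bp wide in replicate 2, with rank 142 of 649 and rank 69 of 495. The peak at 5853204 to 5854821 (1618 bp) had a partner in replicate 1 only. At 5871477 to 5874516, the series-level peak of 3040 bp ranked 276, while replicate 1 marked 714 bp and replicate 2 marked 1168 bp of its right part. To the right of 5895069 the stretch held a peak at 5906590 to 5907825 (1236 bp, rank 1060) and one of 20 bp, both without a partner.

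**Figure D4:**
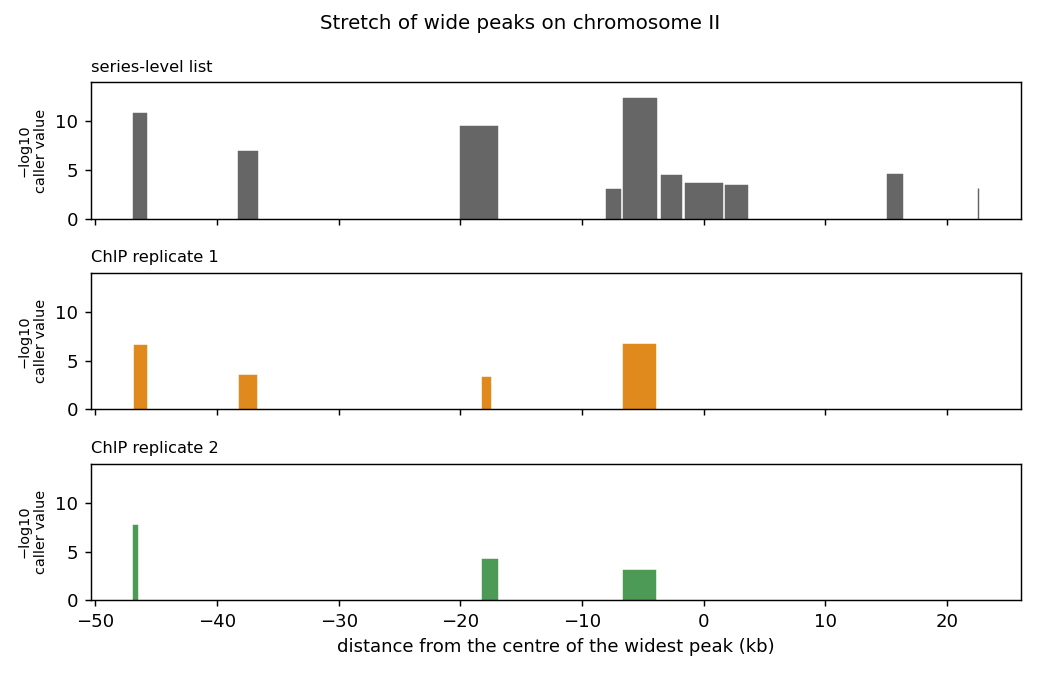
Peaks of the stretch of wide peaks on chromosome II as blocks, with the distance from the centre of the widest peak (kb) across and the −log10 caller value as height, in the series-level list, ChIP replicate 1 and ChIP replicate 2. The series-level list has 10 peaks (the one of 20 bp is a thin line at the right), replicate 1 has 4 and replicate 2 has 3.

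**Figure D5:**
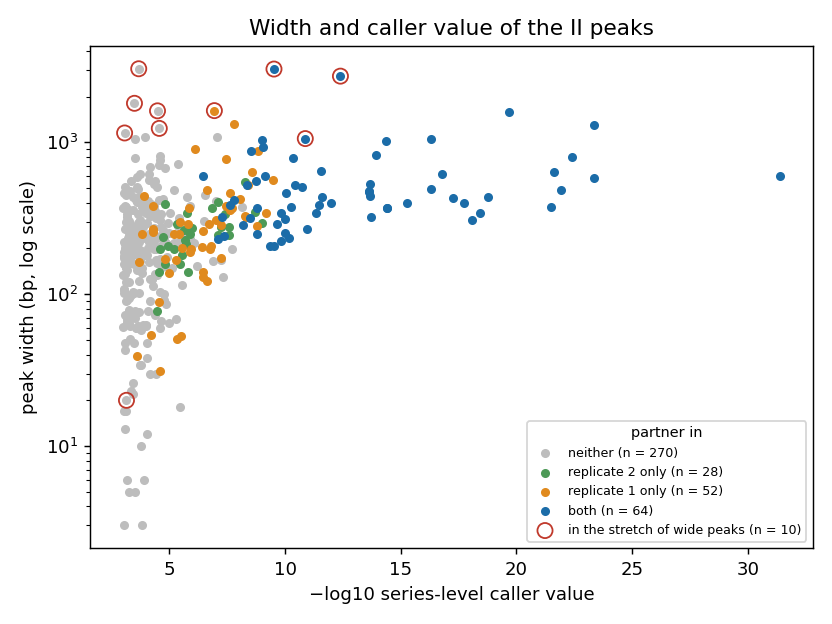
Width in bp (log scale) against −log10 series-level caller value for the 414 peaks on chromosome II, with 1 point per peak, coloured by the replicate lists that hold a partner. Peaks with a partner in both lists lie to the right, with a median of 11.15, and 9 of the 10 ringed peaks of the stretch of wide peaks reach 1000 bp, at −log10 values up to 12.39.

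Outside the stretch, 9 more II peaks reached 1000 bp. Of these, 5 were in both replicate lists, all on the right side of the chromosome and with ranks of 33 to 315. Another 1 was in replicate 1 only (rank 407), and 3 were in neither list, at ranks of 506 to 1755. Over all II peaks 15.5% were in both lists, and over all peaks of the series 14.6%. The 5 in both lists included the sites at 11634827 to 11636131 and at 14249416 to 14251003 (1588 bp, caller value 2.11e-20, rank 56). The site at 14249416 was narrower in the single libraries, with 703 bp and rank 154 of 649 in replicate 1 and 435 bp and rank 248 of 495 in replicate 2. Its series-level −log10 value exceeded the sum of its replicate values by 8.92, the highest such excess on II, where the median was 1.06. On the other autosomes the median was 1.08 and the highest excess 14.3. With depth unknown, the excess shows nothing about binding.

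Sites in both lists came as close pairs at 3 places on II. At 14249416 the second site followed 219 bp after the first, at 14251223 to 14251839, and ranked 84 in the series-level list, 88 in replicate 1 and 81 in replicate 2. Within each replicate list this neighbour thus had the lower caller value of the pair. At 11634827 the strong site was preceded, 317 bp to its left, by a weaker one at 11633914 to 11634509 with rank 305. The third pair, 1962 bp apart, was at 3518883 to 3519416 (rank 137) and 3521379 to 3521631 (rank 255), in the sparse first 25% of the chromosome.

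Peaks on II had neighbours as often as those of the other autosomes. Another midpoint lay within 5 kb for 148 of the 414 peaks (35.7%, interval 31.1 to 40.6%), against 35.7% on the other autosomes and 33.9% over all peaks. They formed 61 chains of peaks at most 5 kb apart, of which 44 were pairs and 6 had 4 or more members. Each other autosome had 53 to 95 chains, of which 3 to 5 had 4 or more members.

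The densest 20 kb windows of II held 5 to 8 peaks. The densest of each other autosome held 5 on I, 9 on III, 5 on IV and 9 on V, where widths reached 1882 bp. On II, the window from 5320123 to 5338941 held 8. The first of them, at 5320123 to 5320509 (caller value 3.30e-12, rank 192), was in both replicate lists. The other 7 were in neither and ranked 667 to 2279. The window from 6825822 to 6843557 held 7 peaks, and 0 of them had a partner in either list. The best ranked 512. Windows of 5 peaks without any partner were also found on I and IV. Next on II came windows of 5 peaks, from 5871477 to 5893049 in the stretch of wide peaks and from 9054537 to 9071956. In the window at 9054537, 1 peak was in both lists (9059995 to 9060871, 877 bp, rank 355) and 1 in replicate 1 only.

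Peaks of II found in a single library were mostly weak within their list. Their median −log10 caller value was 3.71 in replicate 1, where all II peaks had 4.32, and 3.66 in replicate 2, where all II peaks had 4.24. The strongest replicate 1 peak on II without a replicate 2 partner lay at 9603338 to 9603650 (6.70e-07, rank 165 of 649), followed by 7708559 to 7708817 (rank 179) and a peak of 9 bp at 13016501 to 13016509 (rank 182). In replicate 2 they lay at 11967546 to 11967921 (5.92e-08, rank 83 of 495), 4851690 to 4851915 (rank 139) and 7001537 to 7001923 (rank 147). All 6 had a series-level partner, at ranks from 297 to 534. The strongest series-level II peaks with no partner in either library were at 942641 to 943017 (7.09e-09, rank 388), 9057203 to 9057400 (rank 427) and 285744 to 285873 (rank 478).

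Few replicate peaks on II were missing from the series-level list. Replicate 1 had 116 of 123 in it (94.3%, interval 88.6 to 97.7%, against 94.5% over all replicate 1 peaks), and replicate 2 had 92 of 94 (97.9%, interval 92.5 to 99.7%, against 96.4%). The 9 exceptions included 1 site seen by both libraries. It lay at 3994528 to 3994976 in replicate 1 (449 bp, 1.85e-06, rank 189) and at 3994529 to 3994975 in replicate 2 (447 bp, 1.78e-04, rank 325), and the nearest series-level peak was 10.4 kb away. Another was the first replicate 1 peak of the chromosome, at 130 to 500, which was 35.1 kb from any series-level peak.

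Very narrow peaks were few. The series-level list had 27 II peaks under 50 bp (6.52%, interval 4.34 to 9.35%), against 8.14% on the other autosomes and 7.43% over all peaks. Their widths ran from 3 to 48 bp, the best ranked 790, and 25 of the 27 had a partner in neither library. That is close to the share of weak II peaks of any width, since 249 of the 273 ranked after 800 had none. Of the narrow peaks, 2, at 6913393 to 6913423 and 12459460 to 12459498, had a partner in replicate 1 only.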

How the data were processed

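The data were 3 peak lists, 1 for each of the 2 ChIP samples and 1 for the series. Per the file headers positions are on WormBase WS220, and a column of the deposited files names PeakSeq. Each peak's p-value or q-value is as deposited by the authors. For the PeakSeq version, aligner, read filters, use of the input libraries and any pooling of reads, nothing is given in the sources used here. In the series-level list the peak numbers run to 2366, of which 23 have no row, and ranks were computed over the 2343 rows. The labels do not say whether replicates were separate cultures.

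Peaks on II were selected by chromosome. Partners shared at least 1 bp. Intervals are 95% Clopper-Pearson (scipy 1.17.1). Ratios of density take their interval from the share of II among autosomal peaks. Named sites were the 20 strongest II peaks in both lists, peaks of 2000 bp or more and their neighbours, the 3 densest 20 kb windows (a tie adds another), and the 3 strongest without a partner per list. All other positions were chosen after their values were seen. The stretch of wide peaks joins peaks at most 20 kb apart. Members and measures were chosen with earlier results of these data known. The overlap and window code was tested on simulated data. No genome or gene annotation of WS220 was used, so peaks carry no gene names and no sequence.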

Additional observations from a re-analysis of the deposited data

How the results depend on the processing

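Of 50 alternatives over 12 values, 32 stayed within the limits set and 18 did not. Some alternatives could not lower a value. A wider neighbour distance cannot lower the share with a neighbour, and support in a single list cannot be rarer than support in both. The counts are therefore no measure of how firm the results are. The limit was the interval of the value reported, and for the correlation a difference of 0.1. For the median differences it was the standard deviation of the differences in the replicate lists (0.0237 for −log10 values and 7.42 bp for width). Those differences were also among the alternatives, so this limit is not independent of them. Peak density on II relative to the other autosomes and the share in the middle 50% stayed within their intervals under the alternatives run. The correlation between libraries (r = 0.776) stayed within 0.1 but fell to 0.692 without the 2 peaks farthest from the median. The stronger 50% of each list had more partners, and the other autosomes showed the same. Of II peaks 29.9% were in both lists, against 28.9% on the other autosomes. Of replicate 2 peaks on II 86.4% were shared, against 89.3%, and of replicate 1 peaks 74.1%, against 78.4%. Close neighbours were fewer, with 23.4% on II and 22.7% on the other autosomes. Support in a single list in place of both was 22.2% for replicate 2 and 28.02% for replicate 1, against 19.8% and 25.6% on the other autosomes. Widening the neighbour distance to 10 and 20 kb gave 55.1% and 72.0%, against 51.9% and 71.0% on the other autosomes. Within 5 kb the shorter lists had 11.7% (replicate 2) and 15.4% (replicate 1), against 13.2% and 20.3% on the other autosomes. The median −log10 value on II minus that on the other autosomes was 0.15 in the series-level list but -0.0674 in replicate 1 and -0.0339 in replicate 2. The width difference was -1 bp, against -14.5 and -4 bp in the replicate lists and -10 bp with peaks under 50 bp left out. The single lists put 57.4 to 66.7% in the right 50% of the length, and 11.4 to 13.8% in the first 25%. The share of peaks of 1000 bp or more was 2.23% without the stretch of wide peaks and 2.44 to 3.19% in the single lists, both alternatives added after seeing the data. The rises with a wider neighbour distance and with support in a single list follow from how the shares are counted. The cause of the other changes was not tested. No paired analysis was possible because the replicate numbers join ChIP to input libraries, and no peak list of input DNA was analysed here. Precision is limited by unknown read depth and by 1 library per replicate list.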
